A study of Mus musculus with 18 samples.

Results

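Regions of histone H3 lysine 79 dimethylation (H3K79me2) that lay far from any annotated gene were described in mouse CD4 T helper cells. The mark had been mapped by chromatin immunoprecipitation and sequencing with an H3K79me2 antibody in 3 Th2, 3 Th1 and 3 naive libraries, all labelled WT. Th2 and Th1 cells were grown for 4 days on plate-bound anti-CD3 and anti-CD28, starting from CD4 T cells enriched out of mice that carry an IL-4 AmCyan, IL-13 dsRed and IFNg-YFP reporter. Th2 cultures were given IL-4, IL-2 and anti-IFNg and were sorted for AmCyan or dsRed, whereas Th1 cultures were given IL-12, anti-IL-4 and IL-2 and were sorted for YFP. Naive cells were sorted straight from spleens of WT mice as CD44- CD62L+ cells, so that culture, mouse strain and cell type cannot be told apart between polarised and naive cells. The peaks of the 9 lists on chromosomes 1 to 19 and X were merged where they overlapped or touched, which gave 60558 union regions. Of these, 6856 (11.3%) lay at least 10 kb from every RefSeq gene of any biotype in the gene table used, and they are called distal regions here.

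H3K79me2 is deposited by the methyltransferase DOT1L, which travels with the transcription machinery, and it is best known as a mark along the first part of transcribed genes. It has also been found at active enhancers, the stretches of DNA outside genes to which transcription factors bind and from which short unstable RNAs are often made. T helper cells differ by lineage-defining factors and cytokines. GATA3 directs the Th2 programme, T-bet and RUNX3 direct the Th1 programme and its cytokine interferon gamma (Ifng), and LEF1, BCL11B and S1PR1 belong to the programme of resting naive cells. Several of these genes stand beside long stretches of DNA without genes.

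A pair of lineage genes with distal regions on their flanks is shown first by their promoters, since the mark there frames the distal values given below. The sequences are from RefSeq (GRCm38.p6), 250 bases before to 50 bases after the annotated start, in the direction of transcription, with each CG dinucleotide in capitals. Gata3 lies on the minus strand (chr2:9878551-9878850) and Ifng on the plus strand (chr10:118440796-118441095).
Gata3: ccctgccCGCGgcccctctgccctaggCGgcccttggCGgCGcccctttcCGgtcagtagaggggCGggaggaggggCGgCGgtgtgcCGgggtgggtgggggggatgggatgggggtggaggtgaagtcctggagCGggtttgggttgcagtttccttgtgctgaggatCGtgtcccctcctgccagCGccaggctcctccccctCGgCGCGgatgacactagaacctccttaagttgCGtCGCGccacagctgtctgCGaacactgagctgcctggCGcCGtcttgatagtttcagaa
Ifng: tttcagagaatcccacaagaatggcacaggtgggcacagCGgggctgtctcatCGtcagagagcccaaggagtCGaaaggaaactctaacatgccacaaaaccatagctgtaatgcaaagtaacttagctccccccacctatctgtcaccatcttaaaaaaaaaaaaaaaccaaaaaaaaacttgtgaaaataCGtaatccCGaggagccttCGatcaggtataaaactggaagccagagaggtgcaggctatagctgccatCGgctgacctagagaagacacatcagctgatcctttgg
The Gata3 promoter held 22 CG dinucleotides, a number reached by 23.3% of the 32851 promoters in the table, and the Ifng promoter held 7, a number reached by 52.4%. The letters TATAAA, searched on both strands, were in the Ifng promoter and not in that of Gata3, and 13.6% of all promoters held them. Peaks covered 100% of the Gata3 promoter in all 3 Th2 libraries, 0% in all 3 Th1 libraries and 100% in all 3 naive libraries. The 0% in Th1 libraries holds for this short window and not for the gene. In the 3 Th1 libraries a peak began 0.359, 0.396 and 0.252 kb after the start and ran to 10.625, 10.727 and 10.55 kb. The Ifng promoter was covered at 0% in all Th2 libraries, 100% in all Th1 libraries and 0% in all naive libraries.

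The lists of all peaks covered 240 ± 8.93 Mb in Th2, 226 ± 12.2 Mb in Th1 and 280 ± 4.68 Mb in naive cells (SD, n = 3 each). Read depth is unknown, since the lists hold no counts. The third Th2 library stood apart in distal sequence, with 1134 distal regions found in no other list, against 429 and 599 in the other Th2 lists, 98 to 267 in Th1 lists and 159 to 298 in naive lists. Defining T-lineage genes (Cd3e, Cd4 and 8 others) were at least 50% covered in every cell type, at 81.9% to 100%. Cd8a and Cd8b1, which mark CD8 T cells, were 100% covered in naive cells, at 7.28% and 23.3% in Th2 cells and at 0% and 9.01% in Th1 cells. Among B cell genes, Cd79a was 100% covered in every cell type, Cd79b at 54.3% in naive cells and at 0% in the others, and Ms4a1, Pax5 and Blk at 0% throughout. Of 5 myeloid genes none passed 9.32%, the value of Itgam in naive cells. Among NK cell genes, Klrk1 was covered at 2.60% in Th2, 99.8% in Th1 and 26.9% in naive cells and Tyrobp at 93.0% in Th2, 45.0% in Th1 and 100% in naive cells, Klrb1c reached at most 0.820%, in Th1 cells, and Ncr1 was at 0% throughout. Of 4 erythroid genes, Klf1 was covered at 31.5% in Th2, 21.7% in Th1 and 0% in naive cells and the others were at 0%. The part of other cells in the results was not tested. Nothing in the labels ties the libraries of a cell type to separate animals, and p-values therefore describe the spread among libraries, which may be technical.

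Distal regions were many, short and thinly shared. They amounted to 9.96 Mb, 2.72% of the bases of all union regions. Their median width was 588 bp (quartiles 294 and 1399 bp), against 990 bp for all union regions, and widths ran from 178 bp to 85.3 kb. Long domains were a small part: 362 distal regions reached 5 kb and 121 reached 10 kb. Regions 1 bp to under 10 kb from a gene had a like median width (586 bp, 8411 regions), whereas the 45291 regions that overlapped a gene had a median of 1231 bp. The distance threshold cut through a continuum, since the 428 regions at 10 to 11 kb had a median width of 567 bp with 48.6% in at least 2 lists, and the 444 regions at 9 to 10 kb had 644.5 bp with 52.5% in at least 2 lists.

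The median distance to the nearest gene of any kind was 23.7 kb. In all, 2836 regions lay at 10 to 20 kb, 2622 at 20 to 50 kb, 971 at 50 to 100 kb and 427 at 100 kb or more. The nearest gene was a long non-coding RNA for 40.2% of the regions, a protein-coding gene for 36.2% and a pseudogene for 17.8%. The nearest protein-coding gene was a median of 53.2 kb away, and 1417 different protein-coding genes were nearest to at least 1 distal region. The regions were unevenly spread over chromosomes: 688 of the 2980 union regions of chromosome 15 were distal (23.1%), the highest share, and 211 of 3508 on chromosome 11 (6.01%), the lowest.

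Distal regions occurred in groups. The nearest other union region was within 5 kb for 83.7% of them, at a median gap of 1.25 kb. This share was not measured for all union regions. For 18.8% a region nearer to genes lay within 5 kb (median gap 19.3 kb), a distance that the definition of distal itself keeps large. Grouping also depends on how peaks were joined, and merging across gaps of up to 3 kb left 2681 distal regions. When distal regions no more than 50 kb apart were joined, 1611 stretches resulted, and 408 stretches of at least 5 regions held 4619 distal regions (67.4%). The 10 protein-coding genes with the most distal covered sequence beside them had 17.6% of it, and the first 100 genes had 60.7%. These groupings by stretch and by nearest gene were chosen after the data were seen and carry no test.

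Distal regions recurred in fewer lists than the rest. Of the distal regions, 3430 (50.03%) were in 1 list only, against 35.9% of all other union regions, and 184 (2.68%) were in all 9 lists, against 21.2%. Width and recurrence went together. Distal regions in 1 list had a median width of 298 bp (299 bp for other regions), and those in all 9 lists had 6795 bp (14992 bp for other regions). The 184 regions in all lists held 17.9% of the distal bases and the 3430 regions of 1 list held 14.3%.

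**Figure D1:**
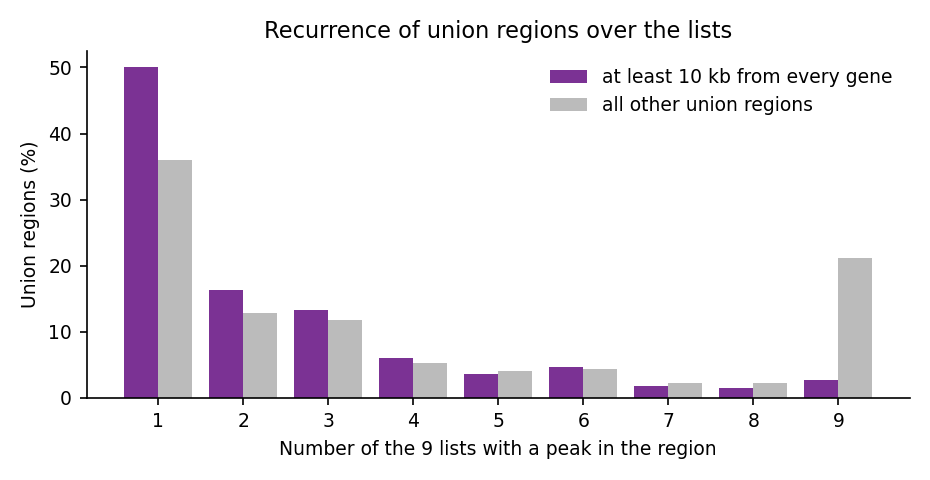
Percent of union regions (vertical axis) by the number of the 9 lists with a peak in the region (horizontal axis), for the 6856 regions at least 10 kb from every gene and for all other union regions. Regions in 1 list make up 50.03% of the distal and 35.9% of the other regions, and regions in all 9 lists 2.68% and 21.2%.

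The same contrast was tested within each library, between its distal peaks and its other peaks. The other peaks were not split by whether they overlapped a gene. A mean of 49.6% of distal peaks and 69.4% of other peaks overlapped a peak in both other libraries of the same cell type. The difference was -19.7 percentage points (SD 6.63, n = 9), lower for distal peaks in 9 of 9 libraries (2-sided exact sign-flip permutation test, p = 0.00391, the smallest this design can give). Distal peaks were also narrower (mean of the library medians 666 bp, against 1386 bp) and had a lower fold enrichment as given by the authors (2.05, against 2.18), each in 9 of 9 libraries with the same exact permutation p. A merged region counted as distal only if all of it lay at least 10 kb from every gene, which favours narrow regions. Merging over lists also widens shared regions, so this definition takes part in the direction of width and recurrence. The tests cannot separate its part. Libraries of a cell type enter each other's recurrence, so the 9 differences are not independent. In peaks of 500 to 2000 bp alone, which makes the widths more alike, the recurrence difference was -6.12 points (exact permutation p = 0.0313). Recurrence of distal peaks was 51.2%, 44.1% and 31.9% in the 3 Th2 libraries, 39.6%, 41.1% and 60.3% in the Th1 libraries and 60.7%, 64.0% and 53.9% in the naive libraries. The Th2 and Th1 libraries overlapped in this measure, and the lowest value was that of the third Th2 library.

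Th2 lists held the most distal regions. The 3 Th2 lists had 2131, 2514 and 3453 distal regions, the Th1 lists 1547, 1519 and 1045 and the naive lists 1437, 1341 and 1587. All Th2 lists were above all Th1 and naive lists, and Th1 and naive lists overlapped. The mean difference was 1244 regions for Th2 minus naive and 1329 for Th2 minus Th1 (2-sided exact permutation tests, p = 0.1 each, the smallest that 3 libraries against 3 can give, adjusted p = 0.15). Th1 minus naive was -84.7 regions (exact permutation p = 0.8). Without the third Th2 library the first 2 differences were 1010 and 1064.5 regions.

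The covered distal length was 3.14, 3.30 and 5.02 Mb in the Th2 libraries, 2.89, 2.53 and 1.97 Mb in the Th1 libraries and 2.92, 2.68 and 3.12 Mb in the naive libraries. All Th2 libraries were again above the others, though the lowest Th2 and the highest naive library were nearly equal. As a share of all covered bases, distal sequence made up 1.35%, 1.38% and 2.01% in Th2, 1.20%, 1.14% and 0.906% in Th1 and 1.04%, 0.972% and 1.09% in naive cells. Th2 shares were above all others in each library (exact permutation p = 0.1 and adjusted p = 0.15 against either cell type).

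**Figure D2:**
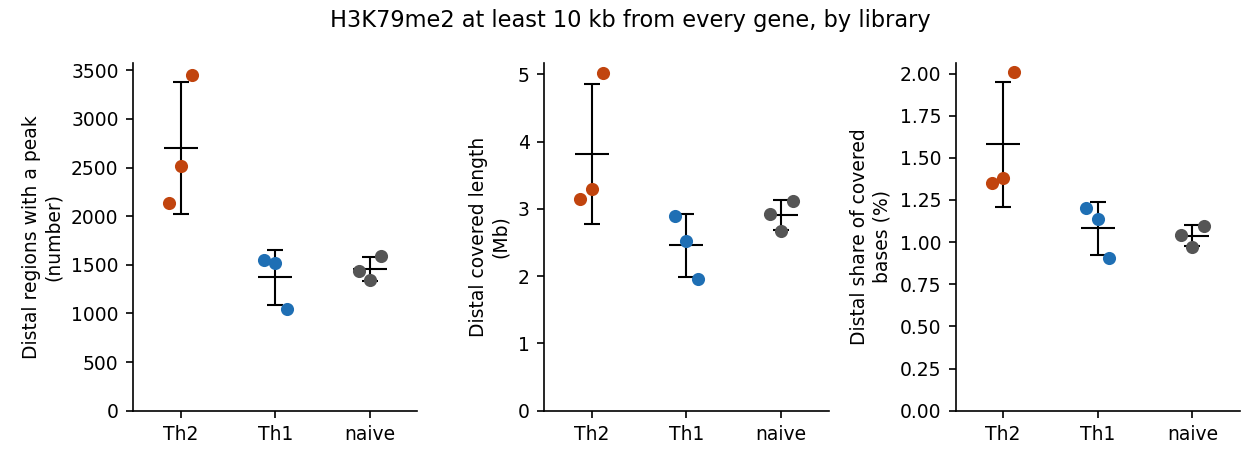
Number of distal regions, distal covered length (Mb) and distal share of all covered bases (%) per library. Points are libraries, long bars are means and whiskers are SD (n = 3). Th2 libraries lie above the others in all 3 panels, the third Th2 library at 3453 regions, 5.02 Mb and 2.01%.

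The larger number in Th2 cells lay among peaks of low −log10 q, the authors' measure of a peak's confidence. Peaks with a −log10 q of at least 5 made up 2.94%, 2.20% and 2.97% of distal peaks in the Th2 libraries, 7.53%, 4.38% and 4.95% in Th1 and 7.30%, 7.51% and 6.33% in naive libraries, while among other peaks the shares ran from 18.7% to 21.3% in Th2, 21.6% to 26.1% in Th1 and 25.5% to 26.8% in naive libraries. With these peaks alone, 349 distal regions remained in all and the difference turned round: Th2 minus naive was -36.7 regions (exact permutation p = 0.1) and Th2 minus Th1 was -13 (p = 0.6, exact permutation). When each list was cut to the 217 Mb of its highest peaks by −log10 q, the length of the shortest list, Th2 minus naive was 664 regions and Th1 minus naive was 838 (exact permutation p = 0.1 each), and Th2 minus Th1 was -174 (exact permutation p = 0.4). The order of Th2 and Th1 cells in the number of distal regions thus depended on which peaks were counted. The distal share of covered bases kept its direction but not its size. Th2 minus Th1 was 0.498 percentage points with all peaks, 0.052 with the cut lists (exact permutation p = 0.6) and 0.00887 with −log10 q of at least 5. Th2 minus naive was 0.543 points with all peaks, 0.682 with the cut lists (exact permutation p = 0.1) and 0.0665 with −log10 q of at least 5 (exact permutation p = 0.3).

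Coverage of gene-free DNA fell steeply with distance from genes in every library. Within 10 kb of a gene, peaks covered 4.20 ± 0.512% of intergenic bases in Th2, 3.47 ± 0.340% in Th1 and 4.55 ± 0.164% in naive cells (SD, n = 3 each). At 20 to 50 kb the means were 0.910% in Th2, 0.696% in Th1 and 0.744% in naive cells. At 100 kb or more they were 0.158 ± 0.0314% in Th2, 0.0730 ± 0.0128% in Th1 and 0.0619 ± 0.00534% in naive cells. The 3 Th2 libraries were above all others in that last band and overlapped naive libraries in the first.

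**Figure D3:**
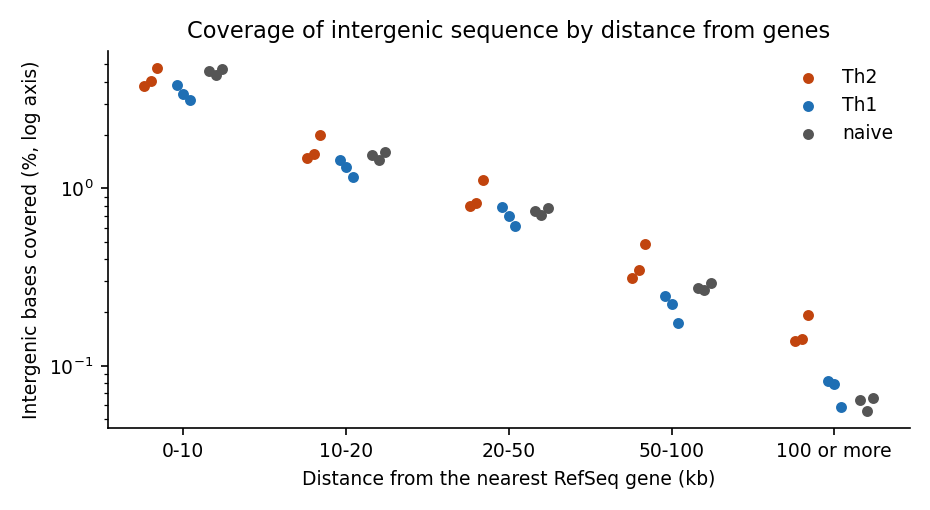
Percent of intergenic bases covered by peaks (log axis) against the distance from the nearest RefSeq gene in 5 bands, by library. Points are libraries. Coverage falls in every cell type, to 0.158% in Th2, 0.0730% in Th1 and 0.0619% in naive cells at 100 kb or more.

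By cell type, a region was called present with a peak in at least 2 of 3 lists and absent with none. Th2 cells alone had 797 distal regions (11.6% of distal regions, against 5.29% of all union regions). Th1 cells alone had 181 (2.64%, against 2.29%) and naive cells alone had 469 (6.84%, against 10.3%). Th1 and Th2 cells shared 397 regions absent from naive cells (5.79%, against 3.90%), and 324 were present in all 3 cell types (4.73%, against 22.1%). The remaining 4538 (66.2%) were in 1 list of a cell type or mixed, with 133 more in naive and Th2 cells and 17 in naive and Th1 cells. The Th2-only regions were short (median 923 bp) and counted 389 without the third Th2 library, 470 without the second and 529 without the first, while Th1-only regions counted 93 without the first Th1 library and 100 without the second. Regions of all 3 cell types were the longest as a class, with a median of 4792 bp.

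Differences between cell types were tested with limma on the percent of each union region covered in each library, over all 60558 union regions, and the call required at least 25 percentage points together with an adjusted p (Benjamini-Hochberg) below 0.05. A region exists only because at least 1 list had a peak there, so a peak in a single list of a group moves its mean by up to 33.3 points without a call. In Th2 against naive cells, 633 distal regions (9.23%) were higher in Th2, against 6.92% of all regions, and 557 (8.12%) were lower, against 15.8% of all. In Th1 against naive cells, 337 (4.92%) were higher in Th1, against 4.88% of all, and 615 (8.97%) were lower, against 17.2% of all. In Th2 against Th1 cells, 350 (5.11%) were higher in Th2, against 3.93% of all, and 135 (1.97%) were lower, against 1.94% of all. The count higher in Th2 than in Th1 was 222 without the second Th1 library. The median difference over distal regions was 33.3, 0 and 33.3 points in these 3 comparisons, against -4.36, -8.79 and 0 points over all regions.

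The naive lists covered more sequence in total. With covered length matched, which also leaves out peaks of low −log10 q, 237 distal regions were higher and 34 lower in Th2 than in naive cells, and 270 were higher and 45 lower in Th1 than in naive cells. In Th2 against Th1 cells 115 were then higher and 132 lower. The cause of these changes was not tested. Both polarised cell types were compared with the same naive libraries.

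The gene nearest to a distal region bore the mark more often when the region was in the list. Over the 9 libraries, 70.6% ± 1.14 of the distal regions in a list had a nearest protein-coding gene that was at least 50% covered in the same library (SD, n = 9), against 62.9% ± 1.56 of the distal regions not in that list. The share was higher in 9 of 9 libraries, by 4.34 to 10.7 points (2-sided exact sign-flip permutation test, p = 0.00391, the smallest possible), and a nearest gene with any peak was found for 85.9% against 81.6% (same exact permutation p). This comparison was added after the data were seen. Libraries of a cell type share regions and nearest genes, and 1 gene can be nearest to many regions (Myc to 232). The 9 differences are thus not independent, as the test takes them to be, and its p-value is likely too small. Of all protein-coding genes, 25.9% to 33.5% were at least 50% covered in a library. Split by the cell type of the region, the mean share was highest in that cell type, which was not tested. Of the regions of Th1 cells only, 54.7% had a nearest gene at least 50% covered in Th2, 69.2% in Th1 and 54.5% in naive cells. For regions of Th2 cells only, the values were 70.6% in Th2, 65.3% in Th1 and 64.5% in naive cells. For regions of naive cells only, they were 56.4% in Th2, 51.8% in Th1 and 64.1% in naive cells.

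Th2 genes had their distal regions mainly beside Gata3. Of 21 listed Th2 genes, 7 were nearest to 90 distal regions; 29 of these were called higher in Th2 than in naive cells and none lower, and 26 were higher and none lower in Th2 than in Th1 cells. Against naive cells, 1 region was higher and 1 lower in Th1. Their median difference was 43.0 points in Th2 against naive cells and 40.6 points in Th2 against Th1 cells. The 29 regions were 32.2% of the list, against 9.23% of all distal and 6.92% of all union regions, and the 26 regions were 28.9%, against 5.11% and 3.93%. The lists of neighbouring genes were chosen with results of these data known, so their direction is no independent evidence.

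Gata3, the Th2 lineage factor, was nearest to 71 of them. Its distal regions covered 144, 151 and 183 kb in the Th2 libraries, 0.993, 0.782 and 0.909 kb in the Th1 libraries and 26.4, 26.1 and 25.4 kb in the naive libraries. The 3 cell types did not overlap, and the naive libraries held an intermediate length. In all, 23 of the 71 regions were called higher in Th2 than in naive cells, and 20 higher in Th2 than in Th1 cells. Gata3 thus held 23 of the 29 and 20 of the 26 higher calls of the list. The stretch ran along the 3′ side of the gene (chr2:9604983-9845492), starting 11.6 kb from the gene's end, with 38 regions. A T-cell enhancer is known far downstream of Gata3, and its position was not compared with this stretch.

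The widest of them, chr2:9644952-9708189, lay 149 kb from Gata3 and 52.0 kb from the long non-coding RNA gene Gm13218. It covered 61.2, 59.6 and 63.2 kb in Th2, 0.993, 0.318 and 0.651 kb in Th1 and 21.8, 22.7 and 22.03 kb in naive libraries. Th2 cells exceeded naive cells by 61.9 points (SE 7.22, limma adjusted p = 6.2e-05) and Th1 cells by 96.0 points (SE 7.22, limma adjusted p = 3.69e-05). Th1 cells were 34.1 points below naive cells by the call (difference -34.1, limma adjusted p = 0.00324), a call that ended with covered length matched (-8.70 points, limma adjusted p = 0.413) and in peaks of −log10 q of at least 5 (-12.6 points, limma adjusted p = 0.0657). Farther on, chr2:9613833-9631484 covered 16.8, 16.6 and 17.3 kb in Th2 libraries and had no peak in any Th1 or naive library (95.7 points, limma adjusted p = 2.8e-05 against naive and 0.000146 against Th1 cells). In peaks of −log10 q of at least 5 this region differed by 32.7 points, with limma adjusted p = 0.303 against naive and 0.568 against Th1 cells. The gene itself was covered at 97.8% in Th2, 59.7% in Th1 and 75.3% in naive cells.

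**Figure D4:**
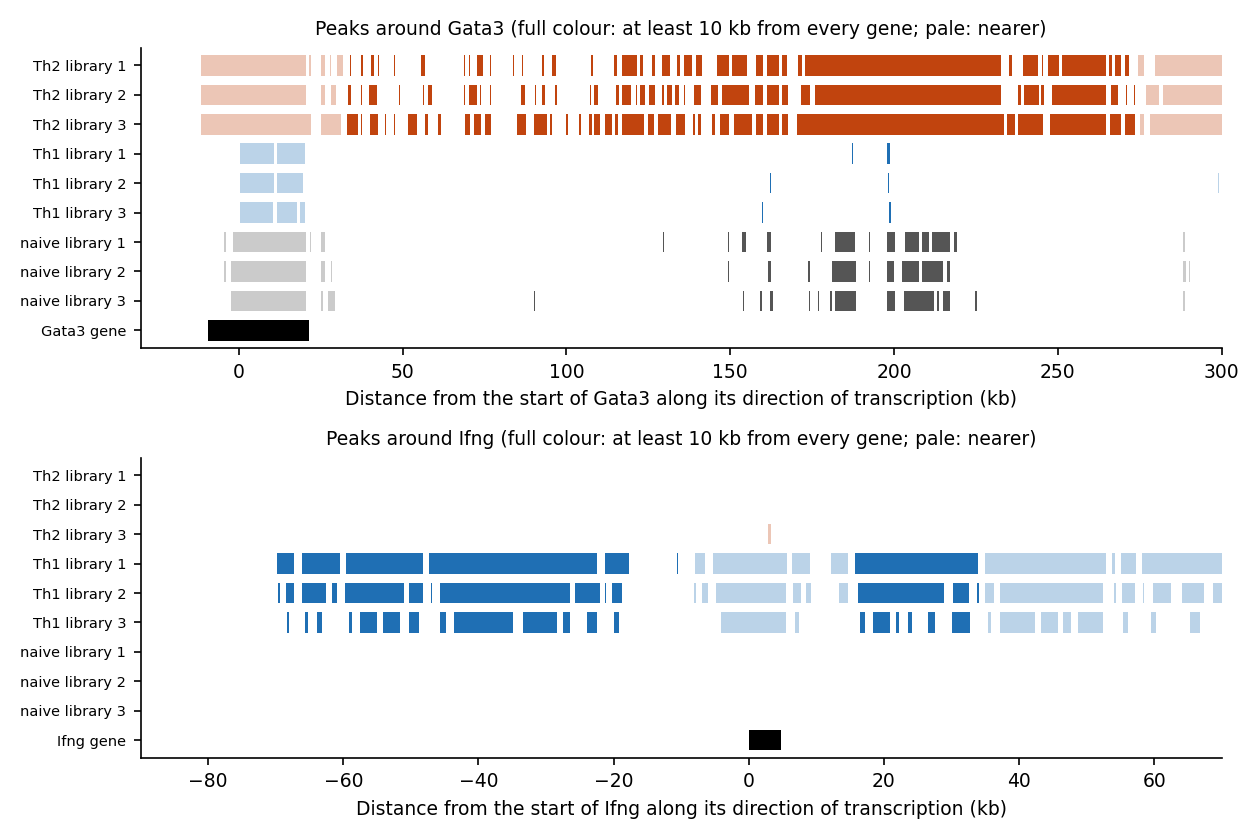
Peaks of each library (rows) around Gata3 and Ifng against the distance from the gene's start along its direction of transcription (kb). Full colour marks peaks in distal regions, pale colour marks peaks nearer to genes, and black bars are the genes. Th2 rows are filled downstream of Gata3, where naive rows hold 23.96 to 25.05 kb and Th1 rows at most 0.993 kb of distal peaks, and only Th1 rows are filled on both sides of Ifng.

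Among the other Th2 genes, Epas1, which encodes the hypoxia factor HIF-2 alpha, had 11 distal regions that covered 8.70, 10.8 and 13.8 kb in Th2, 1.40, 0.551 and 0.516 kb in Th1 and nothing in naive libraries. Of these, 5 were called higher in Th2 than in naive cells and 5 higher than in Th1 cells. Il4ra, a chain of the IL-4 receptor, had 1 distal region, with 3.51, 3.51 and 2.86 kb in Th2 libraries, a peak of 0.28 kb in 1 Th1 library and of 2.07 kb in 1 naive library. It was called higher in Th2 cells in both comparisons. Il5, Il6, Il1rl1 and Maf had 1 or 2 distal regions each, none called, and most did not follow Gata3. Il1rl1 was covered in Th1 libraries only (2.51, 2.77 and 0 kb), as was Maf (1.30, 0 and 0 kb). Il5 had 0, 0 and 0.308 kb in Th2, 0.656, 1.26 and 0 kb in Th1 and 0, 0.802 and 0 kb in naive libraries. Il6 was covered in Th2 libraries only (0, 0.221 and 0.762 kb).

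Th1 genes showed the opposite picture. Of 21 listed Th1 genes, 7 were nearest to 36 distal regions. In Th2 against Th1 cells 8 were lower in Th2 and none higher, and in Th1 against naive cells 10 were higher in Th1 and none lower, while Th2 against naive cells gave 1 higher region. The 8 regions were 22.2% of the list, against 1.97% of all distal and 1.94% of all union regions, and the 10 regions were 27.8%, against 4.92% and 4.88%. The regions of Ifng made up 5 of the 8 and 7 of the 10, and without them 3 called regions of 26 remained in each comparison (11.5%). The medians were -33.3 points in Th2 against Th1 and 33.3 points in Th1 against naive cells. Ifng, the Th1 cytokine whose reporter was used to sort the Th1 cells, had 10 distal regions, and because of the sort its values are given as a description. They covered no base in Th2 libraries, 67.3, 58.0 and 34.6 kb in Th1 libraries and 0, 0 and 0.261 kb in naive libraries. Regions stood on both sides of the gene, where regulatory elements of Ifng are known.

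Upstream of Ifng, chr10:118393702-118418991 covered 24.9, 23.0 and 17.1 kb in Th1 libraries, 22.1 kb from the gene. Downstream, chr10:118456824-118475134 covered 18.2, 15.5 and 8.10 kb in Th1 libraries, 10.9 kb from Ifng and 26.9 kb from its antisense RNA gene Ifngas1. Neither had a peak in a Th2 or naive library. Th1 libraries thus differed in length among themselves, with the third the shortest on both sides. In peaks of −log10 q of at least 5 neither region was called. There Th1 against naive gave limma adjusted p = 0.0542 upstream and 0.21 downstream, and Th2 against Th1 gave 0.184 and 0.477. The downstream call of Th2 against Th1 was also lost without the first or the second Th1 library (limma adjusted p = 0.121 and 0.0941).

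Runx3, the partner of T-bet at Ifng, had 3 distal regions with 13.7, 14.6 and 17.4 kb in Th2, 36.7, 32.7 and 34.2 kb in Th1 and 6.03, 6.998 and 7.34 kb in naive libraries. The groups were apart, with Th2 cells between the others. The widest, chr4:135064752-135089218, lay 31.4 kb from the 5′ end of Runx3 and covered 6.95, 7.13 and 6.87 kb in Th2, 24.2, 21.7 and 23.1 kb in Th1 and 0.646, 0.519 and 0.908 kb in naive libraries. Th2 was lower than Th1 by the call (difference -65.4 points, SE 7.79, limma adjusted p = 0.000399) and Th1 was higher than naive by 91.2 points (limma adjusted p = 1.13e-05). The call of Th2 against naive cells was near the minimum (25.7 points, limma adjusted p = 0.0267). It was lost when the first, the second or the third Th1 library was left out (limma adjusted p = 0.0506, 0.0616 and 0.0604). It was also lost with covered length matched (16.4 points, limma adjusted p = 0.169) and when −log10 q had to reach 5 (6.57 points, limma adjusted p = 0.255). Hlx, a homeobox factor of Th1 cells, had 18 distal regions with no covered base in Th2 or naive libraries and 9.63, 7.02 and 3.09 kb in Th1 libraries. Only 1 of them was called, and 13 were in 1 list. Gzmb and Tbx21 were covered in Th1 libraries only, at most 1.003 and 0.94 kb. Eomes had 0.895 kb in the third Th2 library and none elsewhere. Bhlhe40 had 0.381 kb in the second Th1 and 0.676 kb in the third Th2 library. No region of these genes was called.

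Genes of naive and quiescent T cells, other than Satb1 and Il7r, carried distal regions that were covered mainly in naive libraries. Of 19 listed genes, 13 were nearest to 155 distal regions. In Th2 against naive cells, 40 were lower in Th2 and none higher, and in Th1 against naive cells 44 were lower in Th1 and none higher. These were 25.8% and 28.4% of the list, against 8.12% and 8.97% of all distal and 15.8% and 17.2% of all union regions. The medians were -33.3 and -34.3 points, and Th2 against Th1 cells gave 1 higher region and none lower. The higher coverage of Cd8a and Cd8b1 in naive libraries, given above, moves with these values.

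S1pr1, the receptor that lets T cells leave lymphoid organs, had 13 distal regions with 12.5, 15.4 and 23.3 kb in Th2, 6.48, 6.10 and 7.08 kb in Th1 and 64.4, 65.9 and 67.7 kb in naive libraries. Naive libraries were far above the rest, and 8 regions were called lower in Th2 and 9 lower in Th1. The region chr3:115655501-115682145, 28.3 kb from the gene, covered 5.13, 6.31 and 11.2 kb in Th2, 4.06, 4.45 and 3.84 kb in Th1 and 25.4, 25.3 and 26.6 kb in naive libraries (differences from naive -68.4 and -81.2 points, limma adjusted p = 5.99e-05 and 2e-05). The S1pr1 gene itself remained covered, at 91.8% in Th2, 98.1% in Th1 and 100% in naive cells.

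Lef1, a transcription factor of naive T cells, had 24 distal regions with 4.70, 5.57 and 9.25 kb in Th2, 2.68, 2.45 and 1.67 kb in Th1 and 54.0, 44.4 and 55.3 kb in naive libraries. In each comparison with naive cells 12 were called lower. Bcl11b, a factor that keeps T-cell identity, had 42 with 8.51, 9.64 and 14.5 kb in Th2, 9.06, 7.45 and 6.75 kb in Th1 and 49.2, 48.5 and 61.1 kb in naive libraries, and 9 were called lower in each comparison. The genes themselves were covered at 97.4% (Lef1) and 100% (Bcl11b) in Th2 cells, so that distal and gene coverage parted. Btg1, which restrains proliferation, had 32 distal regions with 12.9, 13.4 and 12.6 kb in Th2, 2.95, 3.47 and 3.14 kb in Th1 and 19.7, 17.1 and 20.02 kb in naive libraries. Dapl1 had 9, with 1.07, 0.454 and 1.40 kb in Th2, 0, 0 and 0.302 kb in Th1 and 14.4, 9.38 and 11.6 kb in naive libraries, and its gene followed, at 9.66% in Th2, 0.678% in Th1 and 65.7% in naive cells.

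Satb1, a chromatin organiser of T cells, and Il7r differed from their list. Il7r had 1 distal region, not called. It covered 7.33, 6.96 and 7.90 kb in Th2 and 5.20, 3.63 and 3.47 kb in naive libraries. Th1 libraries held 7.27, 3.27 and 1.005 kb there. The distal regions of Satb1 covered 44.4, 47.0 and 45.0 kb in Th2 and 35.9, 34.0 and 35.0 kb in Th1 libraries. Naive libraries held 45.8, 44.4 and 46.9 kb, and none of the 15 was called. Nearly all of this was chr17:52043629-52088798, 210 kb from the gene's 5′ end. Among distal regions in all 9 lists it had the highest median fold enrichment as given by the authors, 7.40, with values of 7.70, 8.31 and 8.28 in Th2, 8.23, 7.13 and 7.40 in Th1 and 3.88, 3.74 and 3.78 in naive lists, which describe each list alone. Covered length was lower in Th1 than in naive cells (difference -20.8 points, SE 2.07, limma adjusted p = 2.22e-05) and higher in Th2 than in Th1 cells (20.6 points, limma adjusted p = 0.000176), both below the minimum of 25 points.

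Genes of T-cell activation had the largest number of distal regions, 261 beside 7 of 15 listed genes. In Th2 against naive cells, 40 were higher and 2 lower, in Th1 against naive cells 23 were higher and 3 lower, and in Th2 against Th1 cells 11 were higher and 3 lower. The higher calls were 15.3%, 8.81% and 4.21% of the list, against 9.23%, 4.92% and 5.11% of all distal and 6.92%, 4.88% and 3.93% of all union regions, so that the share in Th2 against Th1 cells was near the background. The medians of 33.3, 0 and 33.3 points were those of all distal regions. Myc, which drives growth and division, was nearest to 232 of the 261, in the gene-poor DNA on its flanks. They covered 136, 120 and 205 kb in Th2, 96.4, 95.0 and 65.0 kb in Th1 and 8.58, 8.50 and 12.3 kb in naive libraries. The cell types did not overlap, and 106 of the 232 regions were in 1 list. Regions of Myc made up 36 of the list's 40 higher calls in Th2 against naive cells and 18 of the 23 in Th1 against naive cells. All 11 in Th2 against Th1 cells were beside Myc, so the list's counts are mainly those of 1 gene. The Myc gene was 100% covered in every cell type.

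The flanks of Myc differed between Th2 and Th1 cells. Beyond Pvt1, the non-coding RNA gene next to Myc, the stretch chr15:62277810-62659111 held 115 distal regions, the most of any stretch. It covered 59.6, 50.005 and 96.6 kb in Th2, 56.1, 57.9 and 41.0 kb in Th1 and 1.78, 1.31 and 2.30 kb in naive libraries, and Th2 and Th1 values overlapped. On the other flank, chr15:61375642-61686119 with 80 regions covered 61.4, 57.1 and 73.2 kb in Th2, 5.45, 4.25 and 3.71 kb in Th1 and 20.02, 18.8 and 23.4 kb in naive libraries, and there Th1 was the lowest. The region chr15:62725171-62752690, 735 kb from Myc, covered 25.2, 22.1 and 27.4 kb in Th2, 24.9, 21.1 and 17.0 kb in Th1 and 1.11, 0 and 1.52 kb in naive libraries (87.3 and 73.1 points above naive, limma adjusted p = 2.14e-05 and 3.34e-05). In peaks of −log10 q of at least 5 these differences were 51.6 and 47 points and were not called (limma adjusted p = 0.103 and 0.131).

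Icos, a costimulatory receptor, had 12 distal regions with 8.14, 9.72 and 13.6 kb in Th2, 20.2, 20.1 and 18.2 kb in Th1 and 1.96, 0 and 0.368 kb in naive libraries. Prdm1, which encodes the repressor BLIMP-1, had 4 with 0.525, 1.37 and 1.98 kb in Th2, 8.68, 6.12 and 6.33 kb in Th1 and none in naive libraries. Beside both genes, every Th1 library exceeded every Th2 library. Genes of other T helper lineages had 22 distal regions, of which 2 were called higher in Th2 than in naive cells, 1 higher in Th2 than in Th1 cells and none in Th1 against naive cells. The shares of 9.09% and 4.55% were near those of all distal regions, 9.23% and 5.11%. The widest of these, chr16:24129850-24132486, lay 141 kb from Bcl6, the factor of follicular helper cells, and was not called in any comparison.

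**Figure D5:**
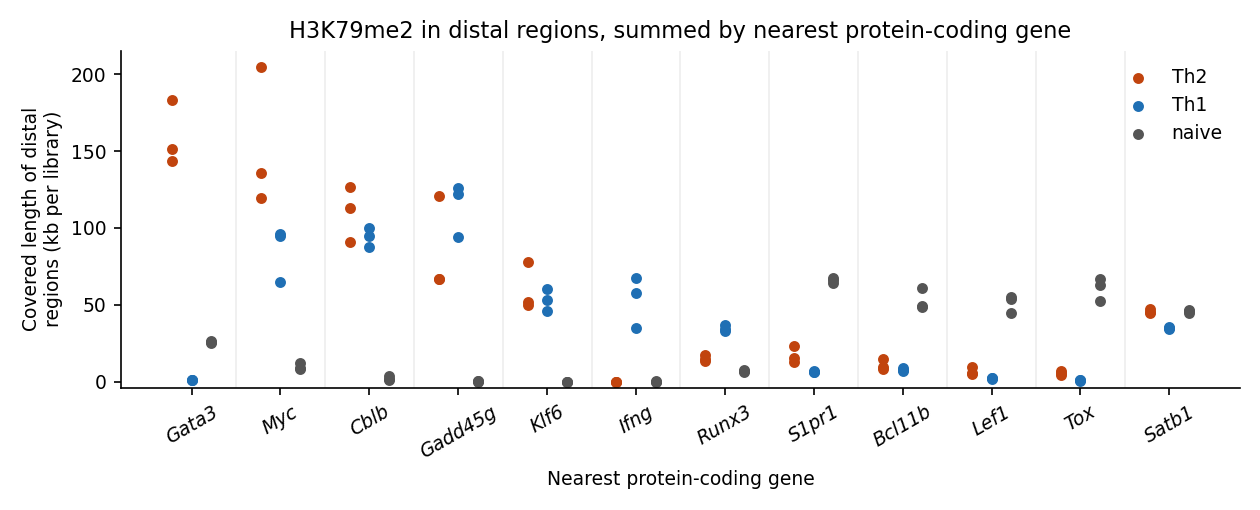
Covered length (kb) of the distal regions nearest to 12 protein-coding genes, by library. Points are libraries, with Th2, Th1 and naive side by side within each gene. Gata3 has 144 to 183 kb in Th2 libraries and at most 0.993 kb in Th1 libraries, Ifng is covered in Th1 libraries, and S1pr1, Bcl11b, Lef1 and Tox are highest in naive libraries.

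Several of the longest domains were gained in Th2 and Th1 cells together. The widest distal region, chr5:53380825-53466171, lay 89.6 kb from the 5′ end of Rbpj, the DNA-binding partner of Notch, and 80.0 kb from the long non-coding RNA gene Gm40304. It covered 81.6, 79.2 and 83.6 kb in Th2, 51.5, 51.0 and 31.3 kb in Th1 and none in naive libraries. Th2 exceeded naive cells by 95.5 points (SE 7.86, limma adjusted p = 1.24e-05), Th1 exceeded naive cells by 52.2 points (limma adjusted p = 0.000298) and Th2 exceeded Th1 cells by 43.2 points (limma adjusted p = 0.00536). The last 2 calls ended when −log10 q had to reach 5 (limma adjusted p = 0.0663 and 0.0522). The Rbpj gene itself was covered at 98.6% in Th2, 89.1% in Th1 and 52.2% in naive cells.

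Cblb, a ubiquitin ligase that restrains T-cell activation, had 128 distal regions with 91.0, 113 and 127 kb in Th2, 99.8, 94.5 and 87.5 kb in Th1 and 1.26, 1.85 and 3.38 kb in naive libraries. Its widest, chr16:51668479-51728692, lay 303 kb from the 5′ end and covered 52.3, 55.2 and 54.5 kb in Th2, 55.6, 54.7 and 56.8 kb in Th1 and 0.826, 1.58 and 3.02 kb in naive libraries (86.6 and 89.5 points above naive, limma adjusted p = 5.82e-07 and 4.37e-07). Th2 and Th1 cells did not pass the test against each other there (-2.90 points, SE 4.65, limma adjusted p = 0.89). The Cblb gene was already 93.0% covered in naive cells, against 97.5% in Th2 and 97.2% in Th1 cells.

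Gadd45g, a stress-induced activator of p38 signalling, had 41 distal regions with 66.9, 66.5 and 121 kb in Th2, 126, 122 and 94.1 kb in Th1 and 0.31, 0 and 0.624 kb in naive libraries. Its widest, chr13:51927889-51981178, covered 34.7, 32.4 and 48.8 kb in Th2 and 52.5, 52.2 and 49.9 kb in Th1 libraries and no base in naive libraries (72.5 and 96.8 points above naive, limma adjusted p = 4.01e-05 and 7.87e-06). Klf6, a zinc-finger factor, had 82 with 51.9, 49.98 and 77.9 kb in Th2, 59.97, 53.3 and 45.8 kb in Th1 and none in naive libraries. Its region chr13:5757642-5784961 covered 20.3, 19.5 and 24.4 kb in Th2, 25.7, 26.7 and 26.6 kb in Th1 and none in naive libraries, and in peaks of −log10 q of at least 5 its differences from naive were 18.6 and 31.3 points and not called (limma adjusted p = 0.598 and 0.347). Egln3, a prolyl hydroxylase of the hypoxia factors, was nearest to chr12:54281408-54324955, 77.5 kb from its 5′ end, which covered 43.0, 43.3 and 42.9 kb in Th2, 43.4, 43.4 and 42.5 kb in Th1 and 0, 0.233 and 1.24 kb in naive libraries (97.7 and 97.8 points, limma adjusted p = 2.31e-07 and 2.15e-07). The Egln3 region was nearly filled in every Th2 and Th1 library. The genes Gadd45g and Klf6 themselves were 98.1% and 97.3% covered in naive cells.

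Longer in Th2 than in Th1 cells was chr13:44288721-44321002, 410 kb from Jarid2, a subunit of Polycomb complexes. It covered 29.2, 27.7 and 29.6 kb in Th2, 24.6, 14.7 and 13.1 kb in Th1 and none in naive libraries. Its call in Th2 against Th1 cells (35.2 points, limma adjusted p = 0.0423) held without the first Th1 library and was lost without any other single library (limma adjusted p = 0.0849 to 0.161). It was also lost with covered length matched (limma adjusted p = 0.0539) and in peaks of −log10 q of at least 5 (0.195), where Th1 cells had no peak there. A clearer case was chr12:25944271-25967370, 339 kb from the ubiquitin ligase gene Rnf144a, with 20.9, 21.3 and 22.2 kb in Th2, 6.35, 3.62 and 6.07 kb in Th1 and none in naive libraries (69.7 points above Th1, SE 8.48, limma adjusted p = 0.000441). Another region nearest to Rnf144a, chr12:26055834-26076559, was in all 9 lists and covered 16.9, 17.4 and 20.6 kb in Th2, 14.8, 13.7 and 13.5 kb in Th1 and 1.16, 1.56 and 3.30 kb in naive libraries. The Rnf144a gene did not share this order, at 14.7% covered in Th2, 0.154% in Th1 and 73.3% in naive cells.

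Lower in Th2 than in Th1 cells were regions beside Ppp1r12a, a subunit of myosin phosphatase, and Rras2, a small GTPase. The first, chr10:108104277-108124675, covered 2.35, 1.80 and 8.97 kb in Th2, 20.4, 18.9 and 16.3 kb in Th1 and 1.16, 0.691 and 0.447 kb in naive libraries (difference Th2 minus Th1 -69.4 points, limma adjusted p = 0.00233). The second, chr7:114148034-114171453, covered 6.67, 7.69 and 16.8 kb in Th2, 21.8, 20.3 and 19.9 kb in Th1 and 3.81, 4.33 and 3.38 kb in naive libraries. Its call (-43.9 points, limma adjusted p = 0.0229) was kept without the third Th2 library and was lost without any other single library (limma adjusted p = 0.0748 to 0.102).

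Distal domains of naive cells were also found beyond the listed genes. The region chr3:41106500-41145110, 23.5 kb from the 5′ end of the haem-binding protein gene Pgrmc2, covered 3.02, 3.13 and 2.46 kb in Th2, no base in Th1 and 36.2, 38.4 and 38.5 kb in naive libraries (differences from naive -90.2 and -97.6 points, limma adjusted p = 2.83e-05 and 1.47e-05). A region between Rpl11, a ribosomal protein gene, and Id3, an inhibitor of E proteins (chr4:136069246-136087784), covered 0.701, 0.517 and 0.434 kb in Th2, none in Th1 and 17.4, 15.96 and 18.3 kb in naive libraries. Both nearest genes stayed covered, Pgrmc2 at 98.6% in Th2 and 94.2% in Th1 cells and Rpl11 at 99.6% in each. Tox, a factor of T-cell development, had 52 distal regions with 4.46, 7.10 and 5.61 kb in Th2, 0.997, 1.03 and 0.431 kb in Th1 and 63.0, 52.7 and 67.1 kb in naive libraries.

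Weaker cases among the regions lower in polarised cells lost calls with covered length matched. In peaks of −log10 q of at least 5, those beside Actr3, Cd83 and Mturn kept their calls against naive cells, and the one beside Ets1 did not. Beside Ets1, a T-cell transcription factor, chr9:32861755-32888268 covered 9.67, 13.5 and 17.4 kb in Th2, 4.62, 2.88 and 1.96 kb in Th1 and 25.4, 26.2 and 24.3 kb in naive libraries (differences from naive -44.5 and -83.5 points, limma adjusted p = 0.000977 and 1.72e-05). With covered length matched these differences reversed to 5.41 and 0.221 points and were not called (limma adjusted p = 0.638 and 1). In peaks of −log10 q of at least 5 both were -4.65 points (limma adjusted p = 0.545 for Th2 and 0.53 for Th1). Beside Actr3, of the actin-nucleating ARP2/3 complex, chr1:125454024-125481136 differed by -48.7 points in Th2 and -51.9 points in Th1 cells (limma adjusted p = 0.00237 and 0.00148), and by -22.7 and -22.9 points with covered length matched (limma adjusted p = 0.251 and 0.22). The region chr13:43964144-43994492, 161 kb from the activation marker gene Cd83, covered 0.499, 1.66 and 0.642 kb in Th2, none in Th1 and 27.4, 28.3 and 24.9 kb in naive libraries, and its differences of -85.4 and -88.5 points were -11.8 points in both with covered length matched (limma adjusted p = 0.427 and 0.341). Between Mturn and the ubiquitin ligase gene Znrf2, chr6:54738304-54779438 covered 20.8, 23.9 and 29.8 kb in Th2, 33.2, 22.3 and 19.3 kb in Th1 and 34.2, 35.9 and 35.9 kb in naive libraries, near the minimum of 25 points (-25.6 and -25.3 points). With covered length matched the Th1 difference was -20.7 points (limma adjusted p = 0.115). Its call against naive cells was lost without any of the 3 naive libraries (limma adjusted p = 0.117 to 0.151 for Th2 and 0.124 to 0.161 for Th1), without the first or the second Th2 library (limma adjusted p = 0.156 and 0.12 for Th2, 0.053 and 0.0736 for Th1) and without the second or the third Th1 library (limma adjusted p = 0.135 and 0.156 for Th1).

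A region low in Th1 cells alone was seen beside Spsb1, a substrate adaptor of a ubiquitin ligase. There chr4:149840508-149871822, 24.5 kb from the 3′ end, covered 24.2, 27.3 and 27.8 kb in Th2, 2.80, 2.82 and 1.73 kb in Th1 and 26.0, 25.3 and 27.95 kb in naive libraries. Th2 and naive libraries overlapped (0.145 points, limma adjusted p = 1), and Th2 exceeded Th1 cells by 76.7 points (SE 5.56, limma adjusted p = 3.15e-05). A graded case was chr17:52438645-52473460, 129 kb from the potassium channel gene Kcnh8, which was lowest in Th1 and also lower in Th2 than in naive cells. It covered 16.7, 19.1 and 19.6 kb in Th2, 11.6, 7.61 and 7.53 kb in Th1 and 28.4, 30.2 and 29.2 kb in naive libraries. All 3 comparisons were called (limma adjusted p = 0.00235 for Th2 and 3.07e-05 for Th1 against naive cells, 0.0187 for Th2 against Th1 cells). The call of Th2 against naive cells there fell under 25 points with covered length matched (-15.5 points) and with −log10 q of at least 5 (-21.2 points, against 28.4 points and limma adjusted p = 0.0631 for Th2 against Th1 cells). The Kcnh8 gene had no peak in any library.

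One long distal domain did not differ by cell type beyond the spread of its libraries. The region chr12:18609277-18624696, 24.3 kb from the predicted protein-coding gene LOC115488002, covered 12.2, 12.8 and 15.2 kb in Th2, 14.3, 14.6 and 13.4 kb in Th1 and 14.1, 13.3 and 13.4 kb in naive libraries. All groups overlapped, and differences ran from -4.64 to 3.12 points with an SE of 4.32 points. Its gene had no peak in any library. The region chr1:86484191-86494328, 32.2 kb from Ptma, a gene of a chromatin-associated acidic protein, covered 6.14, 6.85 and 8.60 kb in Th2, 5.32, 4.16 and 4.29 kb in Th1 and 6.22, 7.99 and 6.82 kb in naive libraries. Every Th1 library lay below every Th2 and naive library. Th1 minus naive was -23.8 points (limma adjusted p = 0.026), under the minimum of 25 points, and Th2 minus Th1 was 25.7 points (limma adjusted p = 0.0536), so that no comparison was called.

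Among distal regions in all 3 lists of a cell type, the 5 farthest from genes were short and all in Th2 lists. Th2 cells had the most distal regions in all 3 lists, 1133, against 659 in Th1 and 891 in naive cells. The farthest was chr10:16096146-16097428, 267 kb from the pseudogene Gm18557 and 1325 kb from the nearest protein-coding gene, Nmbr, a neuromedin receptor gene that had no peak. It covered 1.26, 0.672 and 0.675 kb in Th2 libraries and no base elsewhere (67.7 points, limma adjusted p = 0.00284 against naive and 0.0115 against Th1 cells). The next, chr10:16159892-16163003, covered 1.55, 1.98 and 3.00 kb in Th2 libraries and no base elsewhere. The other 3, of 1031 to 1730 bp on chromosome 15 beside Myc and Spef2, were in all 3 Th2 lists and 1 Th1 list. All 5 were called higher in Th2 than in naive and than in Th1 cells. They had met the rule of all 3 lists through Th2 cells only, so the direction of these calls is no independent evidence. The first was no longer called against Th1 cells without the first or the second Th1 library (limma adjusted p = 0.06 and 0.0632) or without the first or the third Th2 library (0.11 and 0.0526), and the second not without the third Th2 library (0.083). On chromosome 15, chr15:62470690-62471819 was not called against Th1 cells without the third Th2 library (limma adjusted p = 0.0629). There chr15:62472873-62474602 was called against Th1 cells, with 1 library left out, only when this was the second Th2 library (limma adjusted p = 0.0823 to 0.224 without any other), and not against naive cells without the first or the third Th2 library (0.074 and 0.0715). Likewise chr15:9944711-9945741 was called against Th1 cells only when the library left out was the first Th2 library (0.084 to 0.249 without any other), and not against naive cells without the second or the third Th2 library (0.0581 and 0.0682). With covered length matched, the 3 regions on chromosome 15 differed from naive cells by 23.3, 30.2 and 0 points and none was called (limma adjusted p = 0.436, 0.422 and 1), and they had no peak with a −log10 q of at least 5. Nor had chr10:16159892-16163003, at 0 points against naive and Th1 cells (limma adjusted p = 1 each).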

How the data were processed

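The submitters' processing notes name Bowtie2, Picard, SAMtools, MACS2 and the mouse build mm10, without versions. Settings, and whether the 9 input libraries entered peak calling, are not given in the sources used here, and the inputs were not analysed here. The authors deposited 1 broad peak list per H3K79me2 library, so peaks had been called per library. Each peak has the position, a score for display, the enrichment over background as a ratio, and −log10 p and −log10 q, all as deposited by the authors. They describe a peak within its own list and served here only for description and filtering. Read depth is unknown, so no counting interval was set.

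Peaks on chromosomes 1 to 19 and X were merged with Python 3.11.15, numpy 2.4.6 and pandas 2.3.3. Distances were measured to 49554 RefSeq genes of 27 biotypes (GRCm38.p6, the assembly of mm10), of which 21631 were protein-coding. Coordinates are 1-based. Percent covered was fitted with limma 3.58.1 (R 4.3.3; lmFit, eBayes with trend) in 1 fit of the 9 libraries without a replicate term, adjusted over all 60558 union regions. With simulated data (54475 regions, Th1 against naive), the fit recovered 67.8% of 2000 regions of low spread moved up by 40 points and 87.8% of 2000 moved up by 60 points, with 123 false calls among the other 50475. Values per library were compared with 2-sided exact permutation tests, adjusted over the 3 comparisons of a measure.

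Regions were named by rule: the 10 widest, the 5 called regions in each direction and comparison with the largest difference in covered bases, the 5 with the highest median fold in all 9 lists, the 5 farthest from genes in all 3 lists of a cell type, and the longest on average beside each of 5 gene lists. The regions and gene lists were chosen with earlier results of these data known. Genes with the most distal regions, the stretches and the comparison of nearest genes were added after seeing the data. Identical peaks in any 2 lists numbered at most 1, so each library counted as its own sample.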

Additional observations from a re-analysis of the deposited data

How the results depend on the processing

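Lower recurrence, width and fold enrichment of distal peaks held in direction and at the exact permutation threshold with distances of 5 and 50 kb, distances to protein-coding genes only, −log10 q of at least 5, merging across gaps of up to 3 kb and without each library in turn. Recurrence also held with 50% peak overlap and in peaks of 500 to 2000 bp, and its differences ran from -27.0 to -6.12 percentage points, and from -19.9 to -17.7 without each library in turn. These 3 measures were not run with covered length matched. Counts moved with the definition, and the cause of each change was not tested. With a distance of 5 kb, 707 regions were naive only and 505 in all 3 cell types, and the share of covered bases, Th1 minus naive, reversed to -0.0157 percentage points. With a distance of 50 kb, 1398 regions remained. Th1 minus naive then reversed to 17.3 regions per library. Calls were 132 higher and 82 lower in Th2 against naive, 60 and 95 in Th1 against naive, and 76 and 19 in Th2 against Th1 cells, and presence was Th2 only 201, Th1 only 42, naive only 81, Th1 and Th2 89 and all 44.

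With distances to protein-coding genes only, 13389 regions were distal. Calls were then 1318 higher and 1332 lower in Th2 against naive, 739 and 1467 in Th1 against naive, and 704 and 277 in Th2 against Th1 cells, and presence was Th2 only 1426, Th1 only 361, naive only 1082, Th1 and Th2 833 and all 900. With peaks of −log10 q of at least 5, 349 regions remained. Differences per library reversed to -36.7 regions and -0.0718 Mb for Th2 minus naive and -13 regions for Th2 minus Th1. Calls were 36 higher and 65 lower in Th2 against naive, 38 and 66 in Th1 against naive, and 25 and 22 in Th2 against Th1 cells, and presence was Th2 only 23, Th1 only 27, naive only 73, Th1 and Th2 22 and all 12.

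With peaks merged across gaps of up to 3 kb, 2681 regions were distal. Calls were 156 higher and 196 lower in Th2 against naive, 70 and 215 in Th1 against naive, and 86 and 32 in Th2 against Th1 cells, and presence was Th2 only 386, Th1 only 58, naive only 168, Th1 and Th2 160 and all 139. With covered length matched, 2492 regions were distal. Th1 minus naive reversed to 838 regions and 1.37 Mb and Th2 minus Th1 to -174 regions. Calls were 237 higher and 34 lower in Th2 against naive, 270 and 45 in Th1 against naive, and 115 and 132 in Th2 against Th1 cells, and presence was Th2 only 164, Th1 only 273, naive only 16, Th1 and Th2 261 and all 41. The region chr9:32861755-32888268 beside Ets1 reversed there, to 5.41 points in Th2 and 0.221 points in Th1 against naive cells. Counting a region as present only with at least 50% covered gave Th1 and Th2 120 and all 32, and 5-kb tiles gave 654 tiles higher in Th1 than in naive cells.

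Without each library in turn, the number of distal regions ran from 6085 to 6808, and Th1 minus naive from -186 to 96.7 regions and from -0.0163 (and -0.00715 without the first naive library) to 0.155 percentage points of covered bases. Th2-only regions ran from 389 to 907, Th1-only regions from 93 to 255, and regions higher in Th2 than in Th1 cells from 222 to 510. Replicate numbers were shared across cell types in the labels only: deviations of same-numbered libraries correlated at -0.0298 to 0.0307, against -0.0327 to 0.0309 for other pairs. A replicate block gave 721 higher and 576 lower distal regions in Th2 against naive, 352 and 649 in Th1 against naive, and 340 and 133 in Th2 against Th1 cells. Of 66 calls of named regions, 65 kept their call under the replicate block; the exception was Th2 against naive beside Runx3 (25.7 points, limma adjusted p = 0.0704). Depth is unknown, so an absent peak may lie below detection.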
